A study of Mus musculus with 12 samples.

Results

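The interferon-activated p200 family was followed across all 12 RNA-seq libraries of a study of mouse bone marrow-derived macrophages that lack miR-210. Its 10 genes, *Aim2*, *Ifi213*, *Ifi209*, *Ifi208*, *Ifi207*, *Ifi204*, *Mndal*, *Ifi211*, *Ifi203* and *Ifi205*, were taken by name from the 56941 genes of the count tables. The family was chosen by the measured difference between miR-210 KO and WT macrophages, in which *Ifi208* was among the genes that were higher by the most. For the members, comparisons between the genotypes are therefore given as a description, and counts of members called there are printed only beside the share of all genes called. Tests of members concern the response to IL-4, and *Ifi208* enters none of them, since its KO M0 libraries are values that chose it. The difference of that response between the genotypes contains the M0 comparison that chose the family and is likewise a description. The same KO M0 libraries stand in the IL-4 comparison of the other 9 members in KO cells.

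Most p200 (HIN-200 or PYHIN) proteins carry a HIN domain that binds DNA, and most carry a pyrin domain that joins them to signaling partners. Their genes lie side by side on mouse chromosome 1 and are textbook targets of type I interferon. In macrophages the family is best known for AIM2, which senses double-stranded DNA in the cytosol and assembles an inflammasome, and for p204 (*Ifi204*), a DNA-binding protein linked to STING signaling, to the retinoblastoma protein and to myeloid differentiation.

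All mice were of the C57Bl/6J background. The miR-210 deletion came from a cross of floxed mice with a Gata-1 Cre line, and the KO and WT animals were bred from heterozygous parents. Monocytes were enriched from bone marrow by removing other cells with antibodies and grown for 7 days in the presence of supernatant from the fibroblast line L929, a source of M-CSF, which gives M0 macrophages. M2 macrophages received a further 72 hours of IL-4 at 20 ng/mL, and control wells stayed without it. The 4 groups, WT M0, KO M0, WT M2 and KO M2, hold 3 libraries each. Each group carries a separate batch name in the labels, which means that a batch effect and a group effect cannot be told apart. Nothing says that the 3 libraries of a group came from separate animals, so p-values measure the spread between these libraries.

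Total counts per library ranged from 7930525 to 9753468 for WT M0, from 8913242 to 10167695 for KO M0, from 8281164 to 9585223 for WT M2 and from 8096658 to 9671168 for KO M2. Levels are given as TMM-scaled counts, which are counts brought to a common library size, and an error is the SD over 3 libraries. *Mir210*, the deleted gene, had 1, 3 and 5 raw counts in the WT libraries without IL-4 and 1, 2 and 1 in those with it. It had 0 counts in each of the 6 KO libraries, which allows up to 3 counts in a library, a limit that covers counting error only. No KO library held a count of the deleted gene, although the WT counts are few.

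The 7 macrophage markers, among them *Cd68*, *Adgre1* and *Csf1r*, were counted in every library, with summed levels between 66034 and 89298. *Lyz2*, a lysozyme gene of myeloid cells, was the most abundant of them throughout. With IL-4 in WT, 1 of the 7 was called higher and 3 lower, of which *Fcgr1*, a receptor for IgG, had a log2 fold change of -2.97 and *Mertk*, a receptor for dying cells, of -1.33. *Retnla* and *Chil3*, genes that IL-4 induces in macrophages, were at 0 in 6 and 5 of the 6 M0 libraries and were counted in all M2 libraries. Markers of T and NK cells summed to at most 2.27 in a library, those of neutrophils and myeloid progenitors to at most 51.5, and those of B cells to between 53.8 and 92.5. Of the neutrophil list *S100a8* was tested, called higher with IL-4 in WT (log2 fold change 2.04, SE 0.34) and not called in KO (-0.19, SE 0.34). Fibroblast markers summed to between 16.1 and 20.7 in KO M0, above the 8.06 to 11.2 of WT M0, and to at most 7.93 in M2. Erythroid markers reached 35.3 and mast cell and basophil markers 1.91. The dendritic cell list summed to between 4.67 and 13.1 in M0 and between 101 and 175 in M2, where *Zbtb46* made up most of it, and *Flt3* and *Siglech* of the same list stayed at or near 0. The part of other cells in the results below was not tested, and in bulk RNA fewer cells of a type and less RNA per cell cannot be told apart.

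The sequence elements the members share are shown first, since the results refer back to them. The core of the interferon-stimulated response element, searched as GAAA, any 2 bases and GAAA on both strands of the 250 bases before each start in RefSeq (GRCm38.p6), was present in 7 of the 9 members that have an entry. No entry was found for *Ifi204* among the promoters searched. Of all 32851 promoters in the table, 2.98% held this core. The 30 bases around it are printed for the members with the core on the strand of the gene, with the core in capitals, together with those of *Ifi206*, a p200 gene of the same cluster that is not among the 10.
Ifi208: ctgagGAAATCGAAAgctatgaaccttgtc
Ifi213: ctgagGAAATCGAAAgctatgaaccttgtc
Ifi206: ctgagGAAATCGAAAgctatgaaccttgtc
Ifi203: ctgggGAAATCGAAAgctatgaacagtgct
Mndal: ctgggGAAATCGAAAgctatgaacagtgct
Ifi205: ccaggGAAATTGAAAgctatgaacaaaact
Ifi211: ccaggGAAATTGAAAgctatgaacgaaact
Ifi207: ccaggGAAATCGAAAattaagaacaaaact

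The windows of *Ifi208* (chr1:173673602-173673631, plus strand), *Ifi213* (chr1:173599321-173599350, minus strand) and *Ifi206* (chr1:173491334-173491363, minus strand) were equal at all 30 positions. These were the only 3 of the 32851 promoters with all 30 bases on the strand of the gene. *Ifi203* and *Mndal* matched the *Ifi208* window at 25 positions and *Ifi205* and *Ifi211* at 20. The core began between 35 and 134 bases before the start of these genes. A second start of *Mndal* held the core on the opposite strand, 54 bases before it. Another start of *Ifi203* held no core. Its nearest stretch equalled the *Ifi208* window at 13 positions, and 97.5% of promoters came as near. *Ifi209* held no exact core, but its promoter has a stretch that equals the *Ifi208* window at 23 positions.
Ifi209: ctgagtaaatcgaaagagatgcactctgcc

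That stretch lies 79 bases before the start of *Ifi209*, counted to its first core position, and a match this near was found in 0.0213% of promoters. The nearest stretch in the promoter of *Aim2* equalled the *Ifi208* window at 16 positions, and 16.5% of promoters came as near. The gamma-activated site TTCNNNGAA was found in 0 member genes, against 7.02% of all promoters. A site of the form that STAT6, the factor activated by IL-4, binds, with TTC, any 4 bases and GAA, was found in 5 of the 9 member genes with an entry, against 5.85% of promoters. Some of the member promoters, such as those of *Ifi208* and *Ifi213*, are near copies of each other. Members that hold a site are therefore not independent matches. The promoter of *Ifi208* (chr1:173673415-173673664 of GRCm38.p6, plus strand) holds such a site 234 bases before the start and the interferon core 58 bases before it, both in capitals.
Ifi208 promoter: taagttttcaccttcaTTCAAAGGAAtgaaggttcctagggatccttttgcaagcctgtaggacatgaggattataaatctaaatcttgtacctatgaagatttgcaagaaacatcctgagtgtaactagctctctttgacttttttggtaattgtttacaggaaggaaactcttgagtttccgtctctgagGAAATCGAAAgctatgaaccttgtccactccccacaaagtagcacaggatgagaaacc

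A match of letters is a description and not a measured binding site. The mature forms of the deleted miRNA are printed with the seed, bases 2 to 8, in capitals, since its target sites bear on the comparison of genotypes.
mmu-miR-210-3p: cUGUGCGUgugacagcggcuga
mmu-miR-210-5p: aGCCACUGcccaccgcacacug

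The site that pairs with the seed of the 3p form, ACGCACA, was in the longest protein-coding transcript of 0 of the 10 members, against 8.77% of 21642 protein-coding genes. The site for the 5p form, CAGTGGC, was in 7 members, all but *Aim2*, *Ifi208* and *Ifi209*, against 36.1% of genes. The whole transcript was searched, coding bases included, in members and in all genes. Members share stretches, so these 7 are not independent, and targeting by the miRNA was not tested.

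The 10 genes span 681 kb of chromosome 1 (chr1:173178445-173859456 of GRCm39, the build of the files), 3 on the plus strand and 7 on the minus strand, and all are protein-coding. Between them lie 4 more p200 genes, *Ifi206*, *Ifi214*, the pseudogene *Ifi203-ps* and *Ifi202b*, a gene known from mouse lupus. They arose by duplication, and reads from stretches they share may go to a wrong copy or be discarded. Of the 50-base stretches of the longest transcript of any kind, 69.1% were shared with another gene in *Ifi211*, 35.5% in *Ifi209*, 33.2% in *Mndal*, 28.6% in *Ifi204*, 27.2% in *Ifi208*, 17.8% in *Ifi203*, 14.4% in *Ifi213*, 6.77% in *Ifi207*, 0.248% in *Ifi205* and 0% in *Aim2*. *Ifi208* shared 21% of its stretches with *Ifi213* and 12.2% with *Ifi206*. The value of *Ifi205* covers its longest transcript only. *Ifi205* shares more than that value shows, since 42.3% of the stretches of *Ifi211* and 12.5% of those of *Mndal* were also in *Ifi205*. The levels of these genes are uncertain for reads of shared stretches, and *Ifi211* had the largest share among the 10.

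In WT M0 macrophages the 10 genes together held 0.373% ± 0.0567 of the counts of a library. Per length (CPM per kb of exon, with TMM-scaled library sizes), *Ifi204* had the highest level, 213 ± 40.0, followed by *Ifi207* with 186 ± 29.3, *Ifi209* with 143 ± 23.6, *Ifi211* with 125 ± 30.8 and *Mndal* with 97 ± 15.2. The libraries of neighbours overlapped within this upper part of the order. *Ifi203* (69 ± 10.6), *Ifi213* (47.6 ± 9.12), *Aim2* (15.1 ± 0.393), *Ifi205* (4.64 ± 1.68) and *Ifi208* (0.00642 ± 0.0111) followed, each without overlap with the next. When only the bases not shared with other genes were counted as length, *Ifi211* moved to rank 2 and *Mndal* to rank 3, *Ifi209* was at rank 4 and *Ifi207* at rank 5, and *Ifi204* stayed at rank 1.

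In KO M0 macrophages *Ifi208* took rank 9 of the 10 per length, with 13.1 ± 1.39, below *Aim2* with 15.4 ± 0.349 and above *Ifi205* with 2.09 ± 0.447. With unshared bases as length, which also leaves out exons outside the longest transcript, *Ifi208* was above *Aim2*, at 32.2 ± 3.42 against 29.5 ± 0.67. In WT M2 macrophages *Ifi204* and *Ifi207* stood apart from the rest, with 89.4 ± 4.5 and 81.2 ± 5.34 per length, and their libraries overlapped each other. The next gene, *Ifi211*, had 36.8 ± 1.26. With unshared bases as length *Ifi207* did not stand apart in WT M2, at rank 4 with 88.2 ± 5.81, below *Ifi211* with 122 ± 4.17 and *Mndal* with 91.9 ± 0.451. *Aim2* passed *Ifi213* in M2, with 15.3 ± 0.368 against 2.57 ± 0.0608 in WT M2, which reversed their order in M0. In KO M2 macrophages *Ifi207* (89 ± 4.01) and *Ifi204* (88.6 ± 13.9) overlapped at the top, and *Ifi205* (0.542 ± 0.144) and *Ifi208* (0.541 ± 0.257) overlapped at the bottom. With unshared bases as length *Ifi207* was at rank 5 in KO M0 and rank 3 in KO M2.

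**Figure D1:**
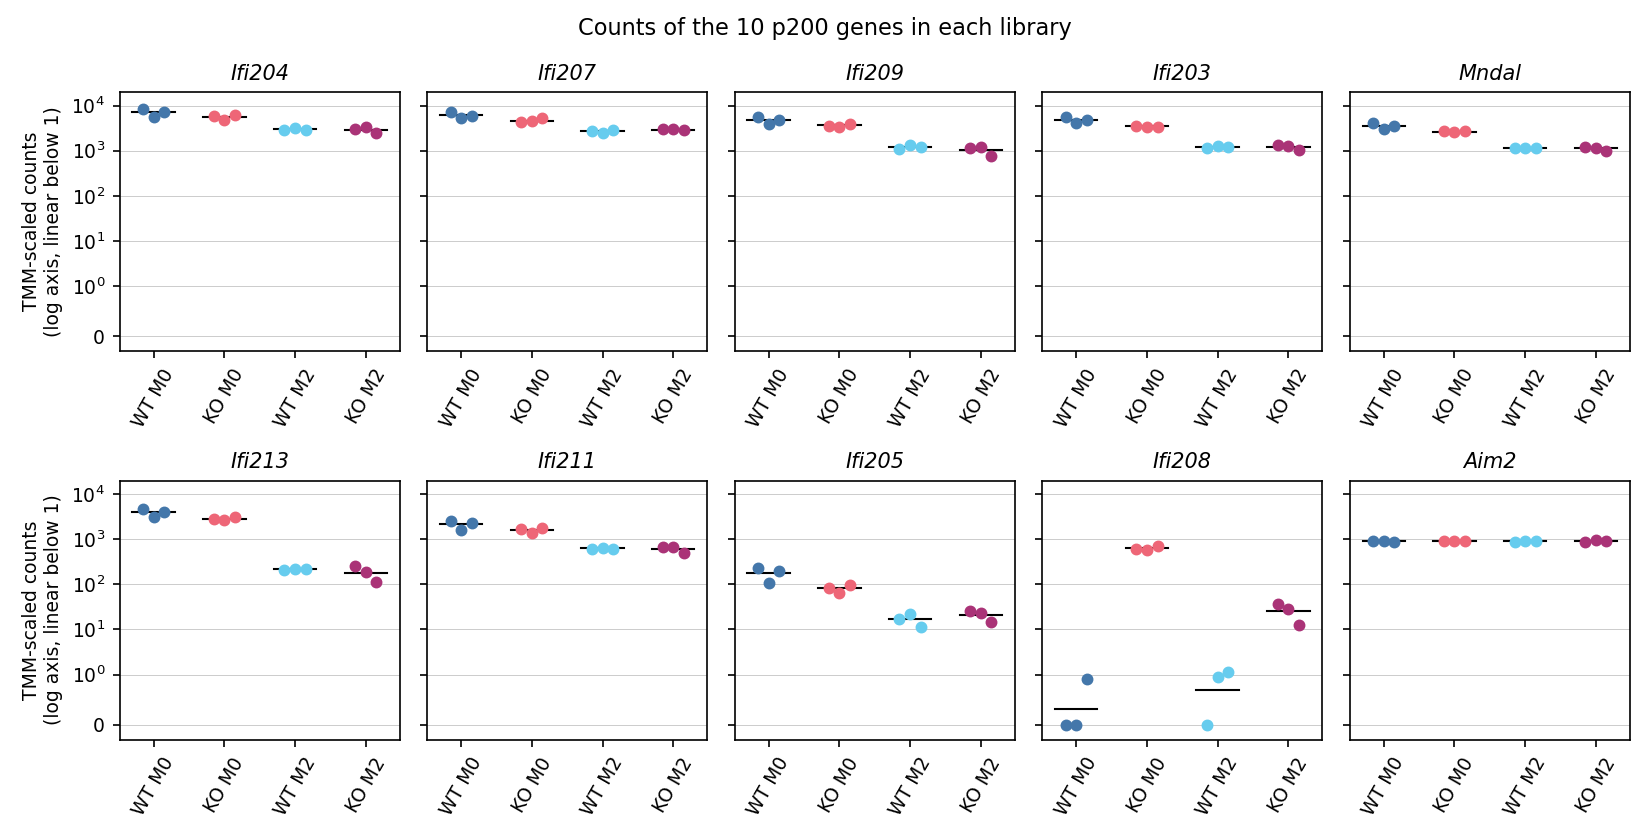
TMM-scaled counts (y axis, logarithmic, linear below 1) of the 10 genes in each of the 12 libraries, by group on the x axis, with points for libraries and a line for the group mean. The M2 libraries lie below the M0 libraries of the same genotype for 8 genes in both genotypes, *Aim2* is level in all groups, and *Ifi208* is at or near 0 in both WT groups.

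The first question was how the family responded to IL-4 in WT macrophages. The level of most of the family fell, by between 2.28-fold and 18.4-fold, and *Aim2* did not pass the test. Of the 9 members that had enough counts, 8 were called lower (edgeR quasi-likelihood test, adjusted p under 0.05 and a fold change over 1.2), and 20.9% of the 14266 genes tested were called lower. The libraries of these 8 did not overlap between the groups, as for 28.7% of all genes. Between WT M0 and WT M2 the summed level of the family went from 33498 ± 5705 to 11019.6 ± 199.7. The median log2 fold change of the 9 genes was -1.76, and that of all genes tested was 0.00.

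*Ifi213* changed the most in WT. Its TMM-scaled counts were 4687, 3171 and 4062 in the WT M0 libraries and 209, 218 and 217 in WT M2, and the groups were far apart. The log2 fold change was -4.20 (SE 0.13, adjusted p = 3.1e-11), and 0.161% of all genes tested had as low a value. *Ifi205*, a low member of the family, had 231, 107 and 201 in WT M0, against 17.1, 21.9 and 11.2 in WT M2. The second WT M0 library was the lowest of its group, and all 3 stayed above the M2 libraries. The log2 fold change of *Ifi205* was -3.38 (SE 0.32, adjusted p = 1.3e-06).

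*Ifi203* and *Ifi209*, which encode further HIN-domain proteins, changed by nearly the same amount. *Ifi203* had 5486, 4031 and 4742 TMM-scaled counts in WT M0, against 1146, 1253 and 1235 in WT M2, a log2 fold change of -1.97 (SE 0.10, adjusted p = 2.3e-09). *Ifi209* had 5468, 3915 and 4844 in WT M0, against 1092, 1322 and 1215 in WT M2, a log2 fold change of -1.96 (SE 0.11, adjusted p = 7.0e-09). For both genes every M0 library was above every M2 library. *Ifi211* had 2593, 1562 and 2246 in WT M0, against 622, 649 and 607 in WT M2 (log2 fold change -1.76, SE 0.14, adjusted p = 2.4e-07). *Mndal*, named for its likeness to the human myeloid nuclear differentiation antigen, had 4189, 3059 and 3569 in WT M0, against 1168, 1165 and 1176 in WT M2 (log2 fold change -1.62, SE 0.10, adjusted p = 1.3e-08). The M0 libraries of both were spread more widely than the M2 libraries, and the groups did not overlap.

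*Ifi204* and *Ifi207* changed the least among the members called. *Ifi204* had 8319, 5673 and 7189 TMM-scaled counts in WT M0, against 2941, 3131 and 2837 in WT M2, a log2 fold change of -1.24 (SE 0.11, adjusted p = 6.6e-07). *Ifi207* had 7205, 5293 and 5947 in WT M0, against 2715, 2500.4 and 2851 in WT M2, a log2 fold change of -1.19 (SE 0.10, adjusted p = 3.7e-07). Neither gene's groups overlapped. *Aim2* had 929, 892 and 885 in WT M0, against 886, 922 and 926 in WT M2, with overlapping groups. Its log2 fold change of 0.02 had an SE of 0.06 (adjusted p = 0.8), the smallest SE of the family. *Ifi208* had 0, 0 and 1 raw counts in WT M0, against 0, 1 and 1 in WT M2, at or under the limit that a count of 0 allows, so its IL-4 response was not measurable in WT at this depth.

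In KO macrophages 8 of the 9 members other than *Ifi208* were called lower with IL-4, against 16.4% of the 14331 genes tested, with libraries that did not overlap, as for 22.7% of all genes, and the median log2 fold change of the 9 was -1.40 against -0.01 over all genes. *Ifi208* had 593, 583 and 703 TMM-scaled counts in KO M0 and 36.6, 28.4 and 12.5 in KO M2, from 589, 677 and 780 raw counts and 33, 30 and 11. The groups lay far apart, with the M2 libraries 24-fold lower in the fit (log2 fold change -4.58, SE 0.20), and the third KO M2 library was the lowest. This difference is a description without a test, because the high KO M0 level chose the gene and carried it past the filter on low counts. *Ifi213* had 2734, 2685 and 3079 in KO M0 and 249, 186 and 109.9 in KO M2, a log2 fold change of -3.96 (SE 0.20, adjusted p = 9.5e-09).

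*Ifi205* had 82.6, 62.9 and 97.3 TMM-scaled counts in KO M0 and 25.5, 22.7 and 14.7 in KO M2, with a log2 fold change of -1.93 (SE 0.25, adjusted p = 5.5e-05). *Ifi209* had 3556, 3370.2 and 3999 in KO M0 and 1164, 1206 and 776 in KO M2 (log2 fold change -1.79, SE 0.14, adjusted p = 5.6e-07). *Ifi203* had 3454, 3434 and 3437 in KO M0 and 1364, 1269 and 1015 in KO M2 (log2 fold change -1.50, SE 0.10, adjusted p = 1.3e-07). In each of these genes the third KO M2 library was the lowest and the groups did not overlap. *Ifi211* had 1724, 1359.6 and 1789 in KO M0 and 685, 665 and 494 in KO M2 (log2 fold change -1.40, SE 0.13, adjusted p = 3.0e-06). *Mndal* had 2678, 2541 and 2714 in KO M0 and 1229, 1139 and 989 in KO M2 (log2 fold change -1.24, SE 0.09, adjusted p = 2.3e-07). All M0 libraries of both genes were above all M2 libraries.

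*Ifi204* had 5766, 4856 and 6118 TMM-scaled counts in KO M0 and 3067, 3326 and 2428 in KO M2 (log2 fold change -0.92, SE 0.12, adjusted p = 4.5e-05). *Ifi207* had 4269.9, 4469 and 5188 in KO M0 and 3069.6, 2972 and 2806 in KO M2 (log2 fold change -0.65, SE 0.09, adjusted p = 6.1e-05), the smallest change of the members called. The groups of both genes lay apart, as in WT. *Aim2* had 925, 891 and 929 in KO M0 and 887, 947 and 895 in KO M2, overlapping groups with a log2 fold change of -0.01 (SE 0.07, adjusted p = 0.95). The unequal response changed the makeup of the family: *Aim2* held 2.74% ± 0.433 of its summed counts in WT M0 and 8.27% ± 0.0803 in WT M2, and *Ifi213* went from 11.8% ± 0.334 to 1.95% ± 0.0128.

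**Figure D2:**
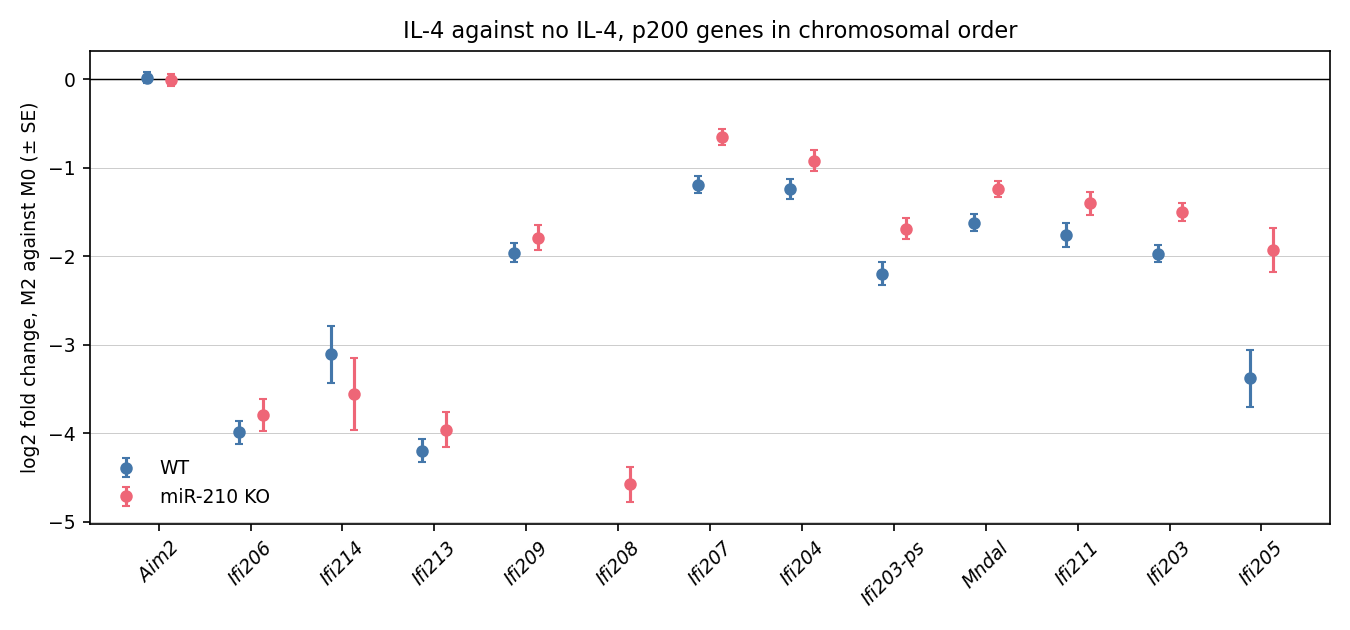
Log2 fold change of M2 against M0 (y axis, ± SE of the edgeR fit on 6 libraries) for 13 p200 genes in their order along chromosome 1 (x axis), in WT and in miR-210 KO cells. *Aim2* lies at 0 in both, *Ifi206*, *Ifi214* and *Ifi213* lie below -3 in both, *Ifi205* does so in WT and *Ifi208* in KO, and *Ifi208* has no WT value because it was near 0 counts.

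The other p200 genes of the cluster responded in the same direction. *Ifi206*, which holds the same window as *Ifi208* and *Ifi213*, had a log2 fold change of -3.99 (SE 0.13) in WT and -3.80 (SE 0.18) in KO. *Ifi214*, at 119, 58.9 and 118 TMM-scaled counts in WT M0, against 9.6, 10.5 and 13.4 in WT M2, had -3.11 (SE 0.32) in WT and -3.56 (SE 0.41) in KO. *Ifi203-ps* had -2.20 (SE 0.13) and -1.69 (SE 0.12). All 3 were called lower in both genotypes. *Ifi202b* had 2.3 TMM-scaled counts in the first WT M0 library and 0 in the other 11.

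The difference of the IL-4 response between the genotypes was fitted as an interaction in all 12 libraries. It equals the genotype difference in M2 less that in M0, and the M0 comparison chose the family, so the values of the members are a description without a test. Over all genes, 0 of 14825 were called with edgeR (0%), while 1327 (8.95%) had an unadjusted p under 0.05, and the DESeq2 Wald test called 74. The fitted interaction was above 0, a smaller fall in KO than in WT, for 8 of the 9 members other than *Ifi208*, with a median of 0.37 on the log2 scale, where the genotype difference had a median of -0.40 in M0 and -0.01 in M2. *Ifi205* had the largest value, 1.45 (SE 0.50), followed by *Ifi207* with 0.54 (SE 0.14), *Ifi203* with 0.47 (SE 0.15) and *Mndal* with 0.38 (SE 0.14). *Ifi213* had 0.25 (SE 0.26), *Ifi209* 0.18 (SE 0.20) and *Aim2* -0.02 (SE 0.09), each within about its own error.

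The comparison of the genotypes themselves chose the family through *Ifi208* and is given as values. In M0 macrophages *Ifi208* had 0, 0 and 1 raw counts in WT and 589, 677 and 780 in KO, at least 209-fold higher against a floor of 3 counts per library. In M2 macrophages it had 0, 1 and 1 raw counts in WT and 33, 30 and 11 in KO, at least 8.22-fold higher. In both states the KO libraries lay above the WT libraries without overlap. The related *Ifi213* had 3393 to 4423 raw counts in WT M0, where *Ifi208* had at most 1, and how reads of the stretches they share were assigned was not tested.

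**Figure D3:**
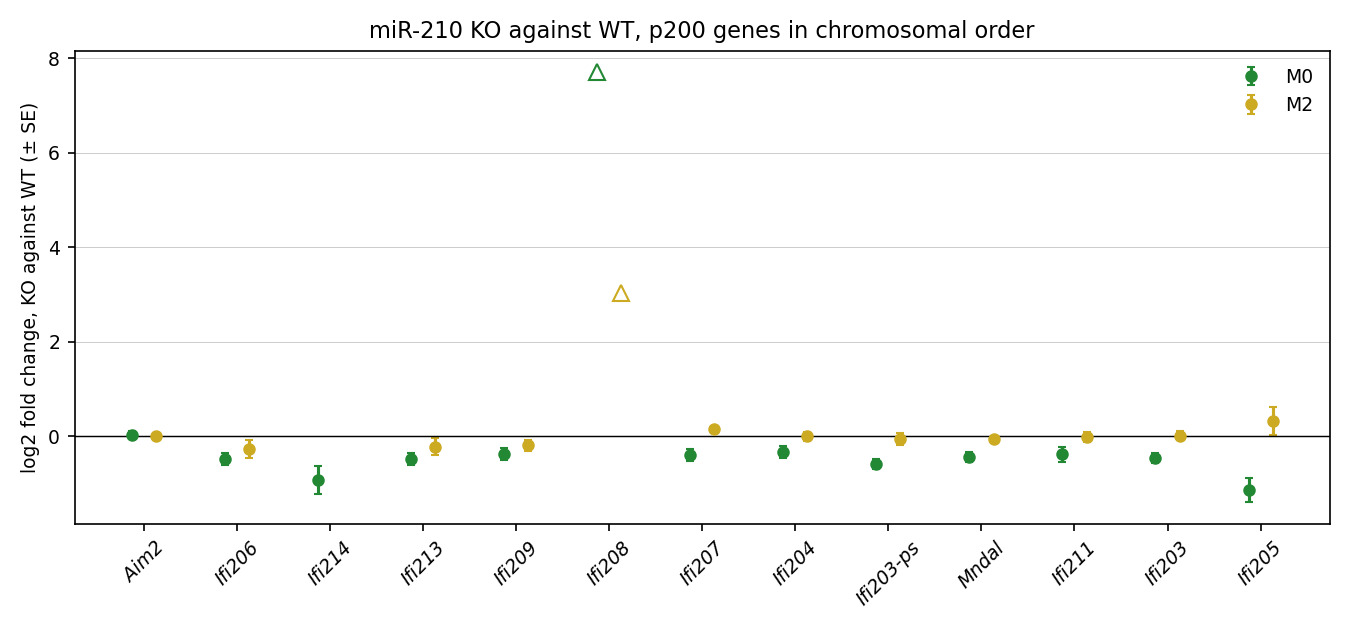
Log2 fold change of miR-210 KO against WT (y axis, ± SE) for the p200 genes in chromosomal order (x axis), in M0 and in M2, with open triangles for the lower bounds of *Ifi208*. The bounds of *Ifi208* stand far above the other genes, whose values lie between -1.14 and 0.02 in M0 and between -0.28 and 0.32 in M2.

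In M0, 1 of the 10 members was called, *Ifi208*, as its choice fixed, and 0.461% of the 14089 genes tested were called. Besides *Ifi208*, 8 members had negative log2 fold changes, from -1.14 (SE 0.26) for *Ifi205* to -0.34 (SE 0.13) for *Ifi204*, and *Aim2* had 0.02 (SE 0.08). The libraries of *Ifi203*, *Ifi205*, *Ifi207*, *Ifi213* and *Mndal* were all lower in KO than in WT without overlap, as were 7.30% of all genes tested, and those of *Ifi208* all higher, as were 7.13%. *Ifi203* shows the pattern, with 3454, 3434 and 3437 TMM-scaled counts in KO M0 against 5486, 4031 and 4742 in WT M0, and *Ifi204*, *Ifi209* and *Ifi211* overlapped through the second WT M0 library. Without that library 8 members were called in place of 1, of them 7 lower, and 302 of 14360 genes (2.1%) in place of 65. These counts are a description of the comparison that chose the family. In M2, 1 member was called, again *Ifi208*, the gene that chose the family, with 0.980% of 13980 genes called, and its libraries were higher without overlap, as were those of 7.52% of all genes (8.52% lower). The other values lay between -0.23 (SE 0.18) for *Ifi213* and 0.32 (SE 0.30) for *Ifi205*, all with overlapping libraries.

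The libraries in which members were high or low were counted within each group. In WT M0 the first library was the highest for all 9 members counted there and the second was the lowest for 8. In KO M0 the third library was the highest for 9 of 10 and the second the lowest for 9. In KO M2 the third library was the lowest for 9 of 10. The deviations of 32 classical interferon-stimulated genes are set beside those of the members. The mean log2 deviation of the 9 members from their group mean was 0.25, -0.29 and 0.05 in the WT M0 libraries, and that of the interferon-stimulated genes was 0.23, -0.31 and 0.08. In KO M0 the values were 0.01, -0.12 and 0.12 for the members and 0.01, -0.12 and 0.11 for the interferon-stimulated genes. In KO M2 they were 0.18, 0.11 and -0.29 against 0.19, 0.14 and -0.33. In WT M2 the second library was the highest for 6 of the 9 members, no library was the lowest for more than 4, and the deviations were small, with -0.03, 0.08 and -0.05 for the members and -0.05, 0.03 and 0.02 for the interferon-stimulated genes, so the third library differed in sign.

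Across the 12 libraries, the centred log2 profile of *Ifi204* was most like those of *Parp12* and *H2-T22* (root mean square difference 0.07 each), then *Trim34a*, *Irgm2* and *Oas1a* (0.10 each), where the median gene differed from it by 0.61. *Ifi213* was most like *Ifi206*, with a difference of 0.11, and *Ifi211* differed from *Mndal* by 0.13 and *Ifi203* from *Ifi209* by 0.14, pairs named after their values were seen. The profile of *Ifi208* follows the genotype difference that chose the gene, with 0 or 1 raw counts in each WT library. Its distance from the other genes was fixed by that choice and is given as a description. The nearest of the 14825 genes were *Gm16867* with a difference of 1.46, *H4c17* with 1.66, *Gm47601* with 1.88, *mt-Nd3* with 2.02 and *Pira2* with 2.07, against a median of 3.31. All points of these profiles share their libraries and depth.

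The wider interferon response was read from lists of genes. All 32 classical interferon-stimulated genes were called lower with IL-4 in both genotypes, with median log2 fold changes of -1.71 in WT and -1.56 in KO, where the p200 members other than *Ifi208* had -1.76 and -1.40. Over all genes tested, 20.9% were called lower with IL-4 in WT and 16.4% in KO, and 22.1% and 17.4% were called higher. The largest changes in WT were those of *Ifit3* (-4.56, SE 0.19) and *Ifit2* (-3.83, SE 0.18), which encode proteins that bind viral RNA, *Ifi44* (-2.98, SE 0.16) and *Oasl1* (-2.91, SE 0.19). In KO their values were -4.36, -3.59, -2.65 and -2.57. *Isg15*, a ubiquitin-like modifier, and *Ifi44* were the list genes called lower in KO M0 than in WT M0, with log2 fold changes of -0.89 (SE 0.14) and -0.88 (SE 0.16), and the median of the list was -0.42 there and -0.16 in M2.

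Upstream of the family, the 17 interferon receptors and signal transducers did not move as a group. In WT, 6 were called higher and 7 lower with IL-4, and in KO 7 higher and 7 lower. *Socs1*, a feedback inhibitor of cytokine receptors, rose from 52.9 ± 12.2 to 1233 ± 95.3 TMM-scaled counts in WT (log2 fold change 4.54, SE 0.12, adjusted p = 8.1e-12). *Irf7*, a transcription factor that amplifies interferon production, fell from 4306 ± 897 to 506 ± 32.8 (-3.08, SE 0.13, adjusted p = 5.9e-10). *Usp18*, an inhibitor of the type I receptor, had -1.36 (SE 0.10). In KO these 3 genes had 4.15, -3.07 and -1.21, and all passed the test. None of the 17 was called between the genotypes with edgeR.

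**Figure D4:**
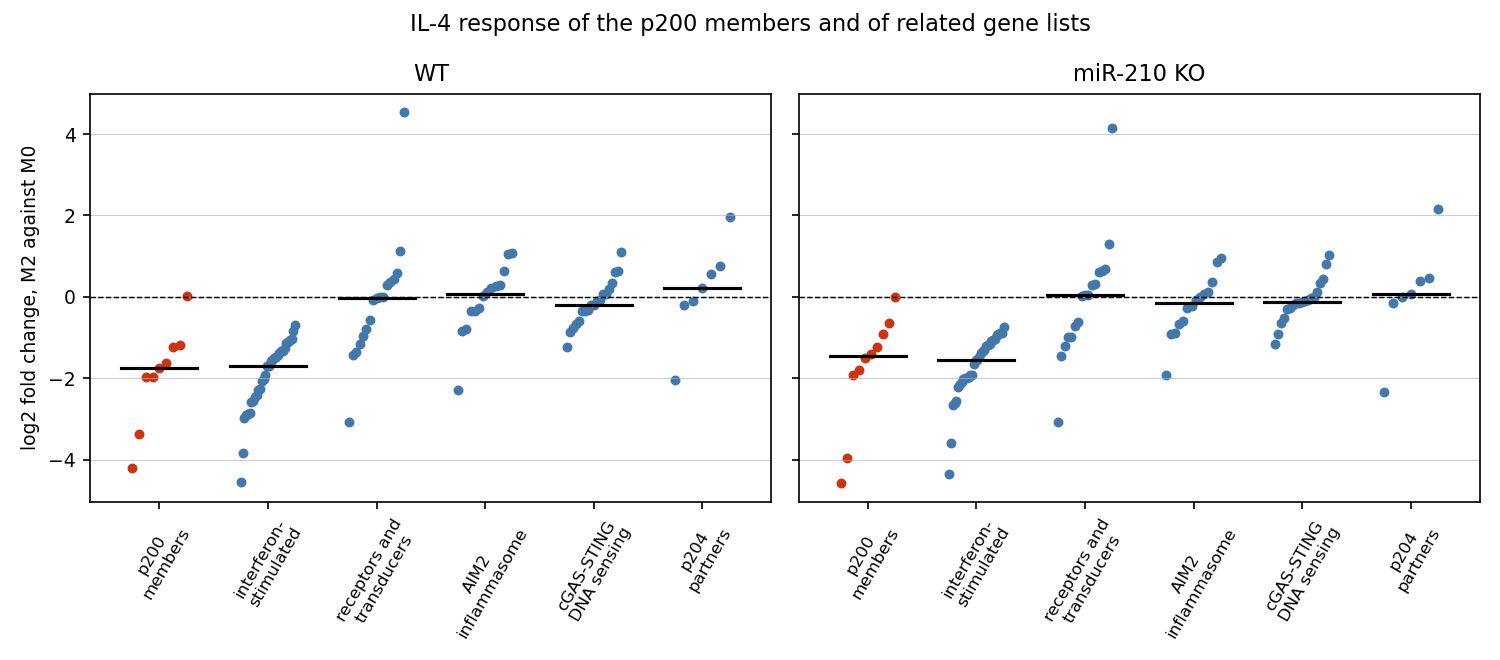
Log2 fold change of M2 against M0 (y axis) for each gene of the p200 family and of 5 related lists (x axis), in WT (left) and miR-210 KO (right), with a bar at the median of a list and a dashed line at the median of all genes tested. The p200 members and the 32 interferon-stimulated genes lie below 0 apart from *Aim2*, and the other lists lie on both sides of it. The KO column of the p200 members also shows *Ifi208*, which is given without a test. Its bar is therefore the median of 10 genes, -1.45, where the 9 members other than *Ifi208* had -1.40. The WT column holds 9 genes.

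Among the 14 genes of the AIM2 inflammasome and its products, 3 were called higher and 6 lower with IL-4 in WT and 3 higher and 5 lower in KO. Over all genes the shares were 22.1% higher and 20.9% lower in WT, and 17.4% and 16.4% in KO. *Zbp1*, a sensor of Z-form nucleic acids that is also an interferon-stimulated gene, fell the most in WT (log2 fold change -2.30, SE 0.13), *Ripk3*, a kinase of necroptosis, rose by 1.06 (SE 0.09), *Ninj1*, which ruptures the plasma membrane of dying cells, fell by 0.85, and the cytokine gene *Il18* fell by 0.79. The direct partners of AIM2 stood nearer to it, as 2 genes picked after their values were seen. *Casp1*, the protease of the inflammasome, had 719 ± 77.6 in WT M0 and 869 ± 45.2 in WT M2 (0.28, SE 0.08, adjusted p = 0.013), and *Pycard*, its adaptor, had 0.13 (SE 0.08, adjusted p = 0.2). *Il1rn*, the antagonist of the IL-1 receptor, was the list gene called between the genotypes, lower in KO M2 than in WT M2 (1877 ± 133 against 2775 ± 701, log2 fold change -0.56, SE 0.12).

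Of the 22 genes of cytosolic DNA sensing, 19 were tested, and with IL-4 3 were called higher and 8 lower in WT and 3 higher and 4 lower in KO. Among all genes tested, 22.1% were called higher and 20.9% lower in WT, and 17.4% and 16.4% in KO. *Ifi204* itself was the list gene that changed the most in WT. *Dnase2a*, a lysosomal nuclease, rose by 1.10 on the log2 scale (SE 0.07), while *Ikbke*, a kinase of the pathway, fell by 0.87 and *Cgas*, the DNA sensor that makes cyclic GMP-AMP, fell by 0.77. Of 8 binding partners of p204, 7 were tested in WT, where *Runx2* rose by 1.97 (SE 0.17), *Id2* by 0.75 (SE 0.09) and *Ubtf* by 0.57 (SE 0.08), and *Id1* fell by 2.05. In KO, 2 of the 7 were called higher and 1 lower, and *Id2*, at 0.46 (SE 0.19), was not called. The retinoblastoma gene *Rb1* was called in neither genotype. Of the p204 partners 0 were called between the genotypes with edgeR.

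The response was also set beside the position on chromosome 1. Within 2 Mb outside the cluster, 43 of 135 annotated genes were tested. With IL-4, 9 of them were called higher and 9 lower in WT, and 10 higher and 8 lower in KO. Over all genes tested, 22.1% were called higher and 20.9% lower in WT, and 17.4% and 16.4% in KO. The median log2 fold changes of the 43 were 0.04 and 0.03. The 9 other annotated genes between the members did not have enough counts to be tested. Between the genotypes, *Usf1*, which encodes a basic helix-loop-helix transcription factor, was the neighbour called, with 287 ± 13.5 TMM-scaled counts in WT M0 and 196 ± 17.6 in KO M0 (log2 fold change -0.55, SE 0.10).

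**Figure D5:**
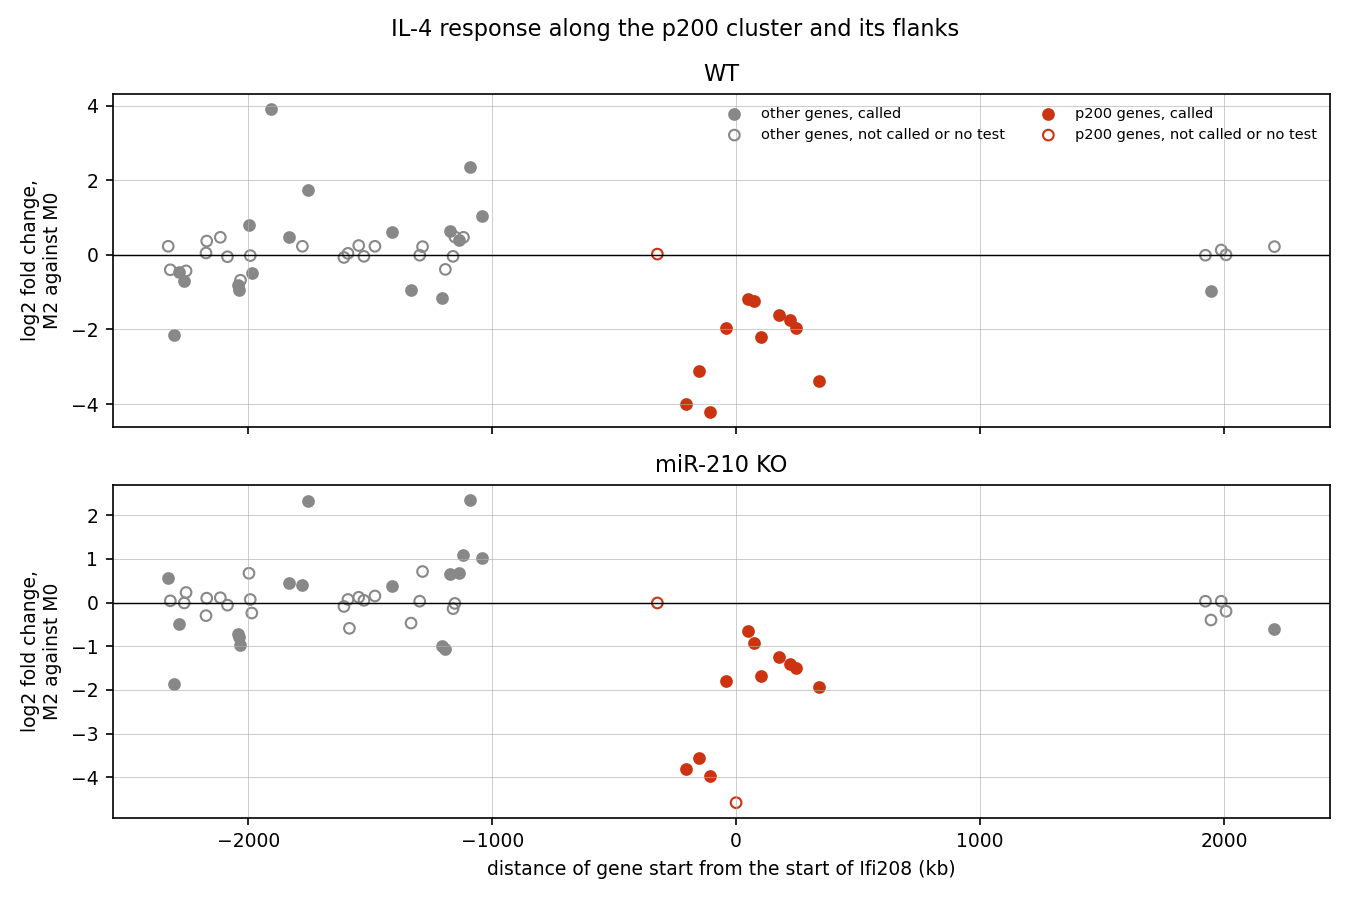
Log2 fold change of M2 against M0 (y axis) by the distance of a gene's start from that of *Ifi208* in kb (x axis), for p200 genes and for other genes within 2 Mb of the cluster, in WT (top) and miR-210 KO (bottom), with filled points for genes called and *Ifi208* open because it is given without a test. The p200 genes other than *Aim2* form a block below 0, and the flanking genes lie on both sides of it.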

How the data were processed

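The authors trimmed the reads with Trimmomatic, removed duplicates with Picard, aligned to GRCm39 with STAR and counted reads per gene and strand with featureCounts, as the study's methods state. They deposited raw counts of 56941 Ensembl genes in 4 tables, 1 for each pair of groups, and 4 tables of a signal, the same counts divided by DESeq2 size factors set for each pair and without genes of few counts, used here only as an alternative for levels. Removing duplicates can lower the counts of abundant genes. Library numbers within a group come from the column names and are not tied to samples. GENCODE matched 56323 gene identifiers and left 618 unmatched.

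edgeR 4.0.16 in R 4.3.3 (quasi-likelihood test, TMM scaling, filterByExpr) was run on the counts of the 6 libraries that each comparison concerns, or of all 12 for the interaction, with Benjamini-Hochberg adjustment over all genes tested. The scripts were tested on simulated counts. Calls needed an adjusted p under 0.05 and, outside the interaction, a fold change over 1.2 in either direction. A gene with no library above 3 counts in a group is given as a bound against a floor of 3 counts per library.

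The members, the gene lists and the markers were chosen with earlier results of these data known. Named are all members and other p200 genes, *Mir210*, the 4 genes with the largest change among those called in WT of each list, list genes and neighbours called between genotypes, and the 5 genes with the profile nearest to *Ifi208* and to the member with the highest level per length. Alternatives were the DESeq2 1.42.0 Wald test, its size factors, other filters on low counts, all 12 libraries in a fit, a fold limit of 2 (1 on the log2 scale), each library left out, unshared bases as length and the deposited normalized counts. The same alternatives for the interferon-stimulated list and a replicate block by library number were added after seeing the data. Promoters and miRNAs are from RefSeq (GRCm38.p6) and transcripts from GENCODE. Protein sequences were not analysed here. A gene that the naming rule selects is not reported here.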

Additional observations from a re-analysis of the deposited data

How the results depend on the processing

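The 8 members called lower with IL-4 in WT and the 8 in KO, *Ifi208* left aside, had the same counts with DESeq2 size factors, the DESeq2 Wald test, the other filters, all 12 libraries in a fit and each library left out, and 6 passed a fold limit of 1 on the log2 scale in KO. The log2 fold change of *Ifi213* lay between -4.34 and -4.07 in WT with a library left out. For the interaction, given as a description, 0 of the 9 members were called in the reported fit, 3 without a filter on low counts (*Ifi203*, *Ifi205* and *Ifi207*, among 341 of 28668 genes) and between 0 and 1 with a library left out (*Ifi207* without the second WT M0 library, among 65 of 15059 genes). The cause was not tested. For the genotypes in M0, 1 member was called in the reported fit, 9 without a filter, 6 with the DESeq2 Wald test, 4 with all 12 libraries and between 1 and 8 with a library left out, all but *Ifi208* lower. Over all genes 65 of 14089 (0.461%) were called there, and 532 of 26255 (2.03%) without a filter. DESeq2 called 209 of 56941 genes (0.367%), and the fit of all 12 libraries called 248 of 14825 (1.67%). With a library left out, the lowest share was 20 of 14406 genes (0.139%), without WT M0 library 3. The highest share was 302 of 14360 (2.1%), without WT M0 library 2.

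Signs near 0 turned when a library was left out. The log2 fold change of *Aim2* with IL-4 in KO ranged from -0.05 to 0.01 and the interaction of *Ifi213* from -0.03 to 0.49. Between genotypes in M2, *Ifi203* ranged from -0.08 to 0.12, *Ifi204* from -0.11 to 0.11, *Ifi211* from -0.10 to 0.11, *Ifi213* from -0.51 to 0.01, *Mndal* from -0.13 to 0.02 and *Aim2* from -0.03 to 0.02, and *Aim2* had 0.00 with the opposite sign in the fit of all 12 libraries. All 32 interferon-stimulated genes were lower under each alternative except 31 in KO with DESeq2. The count tables number the libraries of each group from 1 to 3, and nothing states that a number marks a pair. Libraries with the same number had deviations from their group means that correlated across genes at between -0.27 and 0.34, and 4 of 12 correlated best with their own number. A fit with the number as a replicate block was chosen after seeing the data. With IL-4 it called 8 members in WT, against 41.7% of all genes in either direction, and 8 in KO, against 31.2%. For the interaction it called 0 members and 0% of all genes. Between genotypes it called 8 members in M0, against 284 of 14089 genes (2.02%), and 1 in M2, against 2.07% of all genes. The depth did not allow an IL-4 response of *Ifi208* in WT to be measured.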
